A study of Mus musculus with 5 samples.

Results

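Notch receptors are inert until they are cut and, once cut, act through a small set of nuclear proteins. The 38 genes described here make that machinery: 3 proteases that cut the receptor outside the membrane or on its way to the surface, 5 subunits of the gamma-secretase complex, 5 enzymes that build sugars on the receptor, 10 endocytic regulators and ubiquitin ligases, the DNA-binding protein Rbpj with 8 co-activators, and 6 co-repressors. They were chosen by name for their known roles and not by any measured value. All 38 were found among the 25873 named rows of the deposited table, and 35 passed the filter for testing.

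The values come from tdTomato-positive cells of the Pax7 lineage, the muscle stem and progenitor cells and their descendants, sorted from limb muscle of C57BL/6J fetuses at E16.5. WT fetuses carried Pax7-CreER and Rosa-tdTomato, a reporter that glows after recombination. Notch1 cKO fetuses carried Pax7-CreER, Notch1f/f and Rosa-tdTomato, and Notch2 cKO fetuses carried Pax7-CreER, Notch2f/f and Rosa-tdTomato. All groups received tamoxifen, given orally to the mother for 2 days from E12.5 at 240 mg/kg, so the controls share the recombinase, the reporter and the drug. There were 2 WT libraries (Em2 and Em4 in the table), 1 Notch1 cKO library (Em8) and 2 Notch2 cKO libraries (Em3 and Em4). Because the recombinase is made from Pax7, only cells that had Pax7 when tamoxifen acted could recombine, together with their progeny. Whether the 2 libraries of a group are of different fetuses or litters is not in the labels. The p-values therefore measure differences only against a spread between libraries. That spread was taken mostly from other genes of similar level and little from a member's own libraries (103.8 prior against 2 residual degrees of freedom).

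In the pathway, furin-like enzymes cut the newly made receptor in the Golgi, and sugars added in the endoplasmic reticulum and Golgi set which ligands it answers to. Ligand binding exposes a site for ADAM proteases, gamma-secretase then frees the intracellular part within the membrane, and that part joins Rbpj and a Mastermind protein on DNA. Without it, Rbpj holds co-repressors on the same genes. In fetal muscle, Notch signalling is known for keeping progenitors from differentiating.

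The sequence through which the nuclear members act was looked up in the members' own promoters. The motif searched was GTGGGAA, the core of the RBPJ binding site, with its reverse complement TTCCCAC, in the 250 bases before each start site of the RefSeq promoter table (GRCm38.p6). The table held 44 promoters for 31 of the 38 members. Of these 44, 3 contained the motif (6.82%), against 5.42% of all 32851 promoters of the same length. The 3 are printed 5′ to 3′ on the strand of the gene, with the motif in capitals. Among the 31 members searched, they are those with the motif in these 250 bases.
Psen2: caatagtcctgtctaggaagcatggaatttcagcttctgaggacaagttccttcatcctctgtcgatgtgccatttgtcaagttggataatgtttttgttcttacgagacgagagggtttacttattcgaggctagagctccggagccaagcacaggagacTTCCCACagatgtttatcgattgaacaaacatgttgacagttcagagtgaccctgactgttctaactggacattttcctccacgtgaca
Lfng: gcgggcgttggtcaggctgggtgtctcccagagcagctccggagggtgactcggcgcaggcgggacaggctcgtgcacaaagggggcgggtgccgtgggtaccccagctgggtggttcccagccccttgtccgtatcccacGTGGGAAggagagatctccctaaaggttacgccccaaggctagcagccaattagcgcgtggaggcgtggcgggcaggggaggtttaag
Spen: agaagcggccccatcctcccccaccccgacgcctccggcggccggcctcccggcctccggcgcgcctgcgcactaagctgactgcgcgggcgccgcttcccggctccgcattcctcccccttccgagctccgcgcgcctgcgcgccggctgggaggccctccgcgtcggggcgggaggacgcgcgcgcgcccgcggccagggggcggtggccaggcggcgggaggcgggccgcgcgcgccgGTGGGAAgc
The Psen2 window is chr1:180245951-180246200 on the minus strand, inside the GENCODE span of the gene but outside annotated exons, and its motif starts 89 bases before the RefSeq start. For Lfng, chr5:140607091-140607319 on the plus strand is shown, without the 21 last bases of the window, which lie in an annotated exon; the motif starts 109 bases before the start. The Spen window, chr4:141538598-141538847 on the minus strand, has the motif 9 bases before the start. A match is a description of the letters and not a binding site. Psen2 had values of 10.1 and 13.1 RPKM in WT, 11.8 in Notch1 cKO and 10.6 and 9.50 in Notch2 cKO, so all 5 libraries lay within 1.37-fold of each other. Lfng and Spen are described with their families.

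RPKM divides a gene's reads by its length and by the total of the library, so levels of different genes can be compared. Values below are given in the order WT Em2 and Em4, Notch1 cKO Em8, Notch2 cKO Em3 and Em4. The library totals that the RPKM values imply ran from 20740258 to 28827897 reads, and a member had between 23 reads (Maml2 in WT Em2) and 11727 reads (Hdac2 in Notch2 cKO Em4) in a library. The libraries fitted their labels at Notch1, with 7.26 and 13.5 RPKM in WT, 2.33 in Notch1 cKO, and 11.8 and 8.39 in Notch2 cKO (log2 fold change of −1.72 in Notch1 cKO against WT, limma adjusted p = 0.0443). That call was lost without WT Em4 (adjusted p = 0.78), Notch2 cKO Em3 (adjusted p = 0.13) or Notch2 cKO Em4 (adjusted p = 0.119). Notch2 reads did not separate the groups, with 2.40 and 4.17 RPKM in WT, 3.90 in Notch1 cKO and 3.35 and 2.03 in Notch2 cKO, and the labels do not say which exons were floxed, so reads from outside them check nothing. The Notch target Hes1 stood at 271 and 194, 96.1, and 162 and 143 RPKM, with no call. The myogenic markers were present in every library, with Myog from 944 to 1737 RPKM. Among markers of other cells, summed over each list, the haematopoietic list lay between 10.2 and 15.7 RPKM and the endothelial list between 20.8 and 39.9. Cd68 (5.13 to 9.64 RPKM) was the largest part of the first sum, and Egfl7 (15.9 to 33.9) of the second. Only 2 of 8 haematopoietic and 3 of 8 endothelial markers had a mean of at least 1 RPKM, so these sums rest on few genes. The fibroblast sum ran from 146 (WT Em2) to 411 (Notch2 cKO Em4), the tendon and cartilage sum from 49.3 (WT Em2) to 210 (Notch2 cKO Em4) and the mast cell sum from 1.29 (Notch1 cKO Em8) to 31.1 (Notch2 cKO Em4). Every gene of the tendon and cartilage list except Scx had its highest value in Notch2 cKO Em4. Matn1 stood at 24.2 RPKM there and at most 2.38 elsewhere. Scx, the most abundant marker of that list, lay between 30.5 and 37.9 RPKM, with 31.3 in Notch2 cKO Em4. The erythroid sum was 981 and 1224 in WT, 1749 in Notch1 cKO and 521 and 450 in Notch2 cKO. In sorted pools like these, fewer cells of a type and less RNA per cell cannot be told apart.

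**Figure D1:**
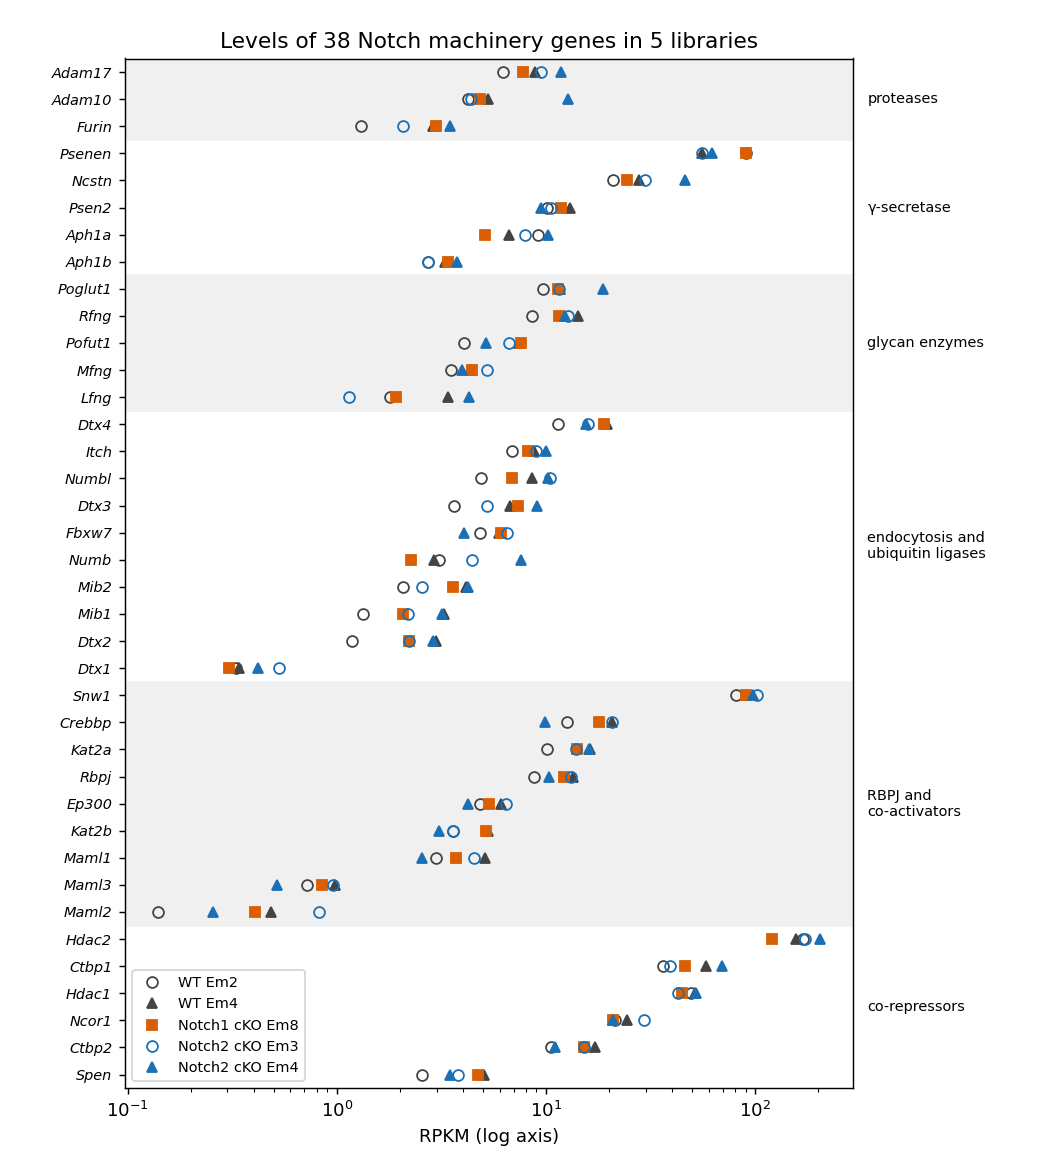
RPKM of the 38 members (log axis) in each of the 5 libraries, grouped by role and ordered by mean within a role. Hdac2 and Snw1 had the highest mean levels, Dtx1, Maml2 and Maml3 the lowest, and for many genes the WT Em2 circle lies at the left end of its row.

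The machinery was present throughout. By the mean of the 5 libraries, Hdac2 led with 164 RPKM (percentile 93.4 of the 11543 genes tested), followed by Snw1 (92.1), Psenen (70.7), Ctbp1 (49.8) and Hdac1 (48.1). Maml2 (0.422), Dtx1 (0.386) and Maml3 (0.805) had means under 1 RPKM and were not tested. Every other member had at least 54 reads in each library.

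No member passed the test in any comparison. In Notch2 cKO against WT, 0 of 35 members were called at an adjusted p under 0.05 by limma on log2(RPKM + 1), where 0.537% of all genes tested were called (62 of 11543; 0.355% higher and 0.182% lower). At an unadjusted p under 0.05 there were 2 members, Numb and Ncstn, which is 5.71% of the members against 7.63% of all genes. In Notch1 cKO against WT, 0 of 35 members were called against 0.0693% of all genes (0.0433% higher and 0.026% lower), and 0 had an unadjusted p under 0.05 against 1.85%. In Notch2 cKO against Notch1 cKO, 0 of 35 were called against 0.485% (0.277% higher and 0.208% lower), and 1 member, Numb, had an unadjusted p under 0.05 (2.86% against 8.66%). With limma voom on the recovered reads, 2, 0 and 1 members had an unadjusted p under 0.05 in the 3 comparisons and 0 were called, but in Notch2 cKO against WT that fit called 0 genes of the whole table. At 1 or 2 libraries a group, the 95% interval of a member reached 0.52 to 0.66 log2 units to each side in Notch2 cKO against WT and 0.63 to 0.81 in the comparisons with Notch1 cKO. The interval lay wholly within 1 log2 unit of 0 for 28 of 35 members in Notch2 cKO against WT, for 26 in Notch1 cKO against WT and for 20 in Notch2 cKO against Notch1 cKO. These half-widths are not adjusted for the number of genes, and a call needed a larger change. In Notch2 cKO against WT, Numb (0.77, half-width 0.64) and Ncstn (0.60, half-width 0.55) exceeded theirs and were not called. Changes inside the half-widths were not detectable here, and a p that misses the threshold does not show that levels were alike.

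**Figure D2:**
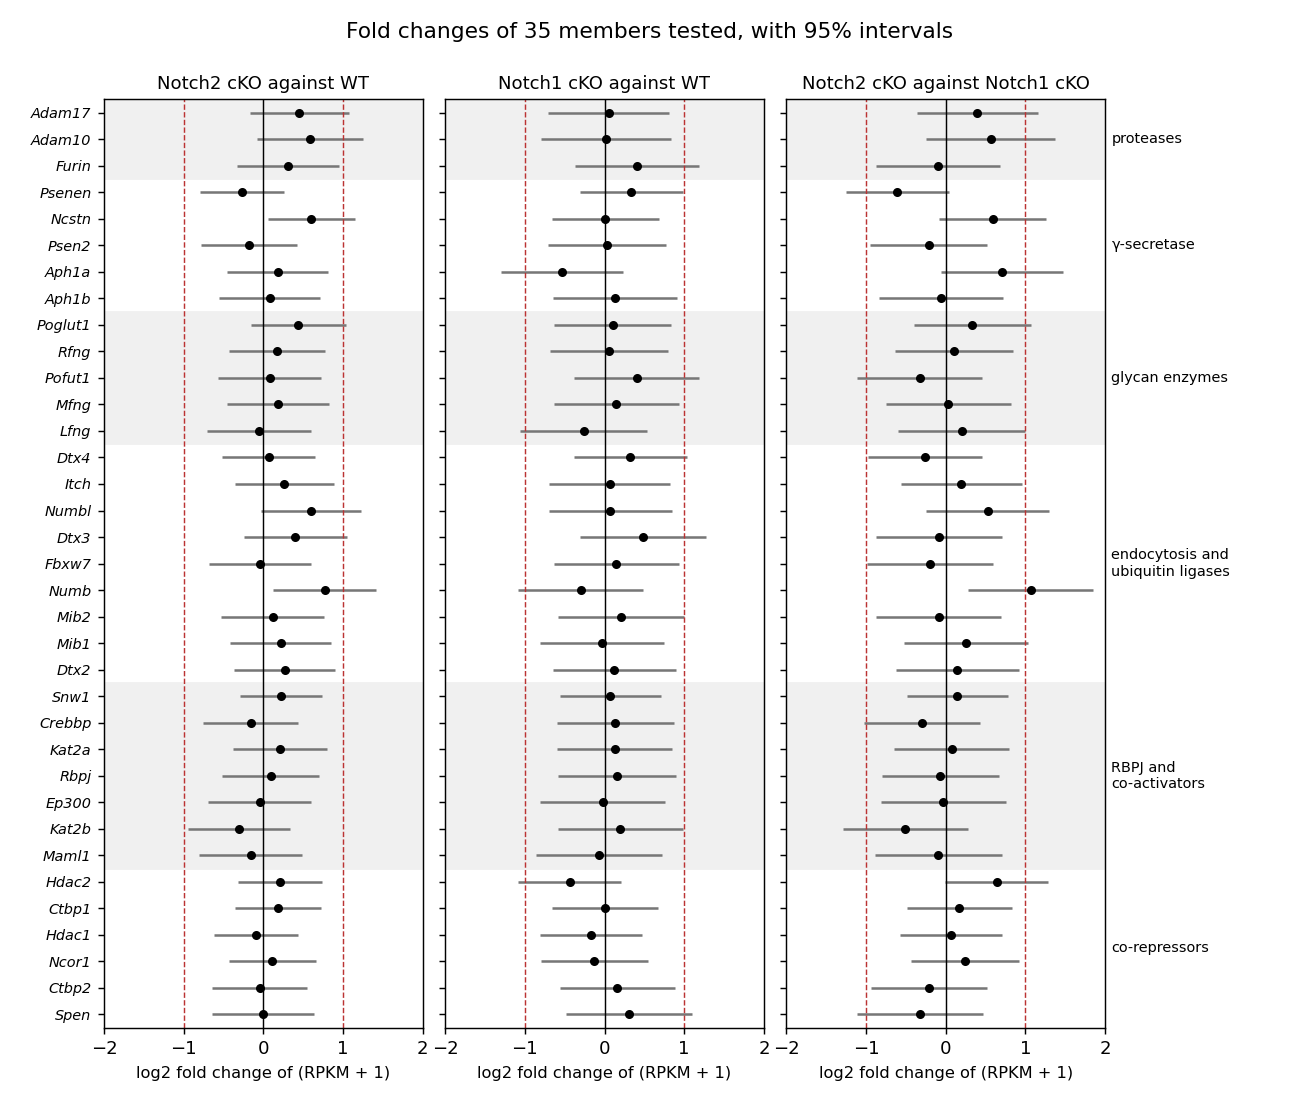
Log2 fold change of (RPKM + 1) for the 35 members tested, with 95% intervals from limma, in the 3 comparisons; dashed lines mark 1 log2 unit. In the left panel the intervals of Numb and Ncstn leave out 0, in the right panel that of Numb, and none passed after adjustment.

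The median log2 fold change of the members was 0.17 in Notch2 cKO against WT, beside 0.14 for all genes tested, with 24 members above 0 and 11 below (68.6% above, against 68.1% of all genes). Without WT Em2 it was −0.12, beside 0.03 for all genes, and without WT Em4 it was 0.38, beside 0.26. In Notch1 cKO against WT the median was 0.08 beside 0.01 for all genes, and 26 members lay above 0 (74.3%, against 51.5% of all genes). Without WT Em2 this median was −0.16 beside −0.09, and the sign of 19 of 35 members turned. In Notch2 cKO against Notch1 cKO it was 0.07 beside 0.12, with 19 members above 0 (54.3%, against 61.8% of all genes). Leaving out 1 library turned the sign of the log2 fold change or moved it by over 1.5 times for 35 of 35 members in Notch2 cKO against WT, 32 in Notch1 cKO against WT and 24 in Notch2 cKO against Notch1 cKO. The comparisons share libraries, so their values are not independent of each other.

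All 3 proteases that cut the receptor had their highest level in Notch2 cKO Em4, as did 33.3% of all genes tested. Only Adam17 had both Notch2 cKO libraries above both WT libraries, as 28.3% of all genes tested did. Adam10, the main protease of ligand-induced cutting (chr9:70678997-70780229), stood at 4.25 and 5.27 RPKM in WT, 4.81 in Notch1 cKO, and 4.36 and 12.8 in Notch2 cKO. The other 4 libraries ran from 4.25 to 5.27 RPKM, and Notch2 cKO Em4 alone was higher. Notch2 cKO against WT had a log2 fold change of 0.58 (SE 0.33, adjusted p = 0.709), and it was −0.10 without Notch2 cKO Em4. Adam17, a related protease that cuts many surface proteins (chr12:21323509-21373632), read 6.23 and 8.88, 7.78, and 9.48 and 11.7 RPKM. Both Notch2 cKO libraries lay above both WT libraries (log2 fold change 0.45, SE 0.31, adjusted p = 0.756), with an estimate of 0.23 without WT Em2 and 0.68 without WT Em4. Furin, the Golgi convertase (chr7:80388585-80405436), was the lowest of the 3 at 1.30 and 2.89, 2.97, and 2.06 and 3.49 RPKM, and the groups overlapped. Adam17 was above Adam10 in 4 of 5 libraries, the exception being Notch2 cKO Em4. In that library the tendon and cartilage, fibroblast and mast cell sums were also the highest of the 5, and their part in these values was not tested.

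Among the gamma-secretase subunits, Ncstn had both Notch2 cKO libraries above both WT libraries, as 28.3% of all genes tested did. The groups overlapped at the others. Ncstn encodes nicastrin, the subunit that receives the cut receptor (chr1:172066013-172082795). It stood at 20.9 and 27.7 RPKM in WT, 24.3 in Notch1 cKO, and 29.6 and 46.3 in Notch2 cKO. Both Notch2 cKO libraries were above all others, though Em3 exceeded WT Em4 by little, and the 2 Notch2 cKO libraries differed by 1.56-fold. The log2 fold change against WT was 0.60 (SE 0.28, unadjusted p = 0.0311, limma adjusted p = 0.582), and 0.29 without Notch2 cKO Em4. Psenen, the small subunit that completes the complex (chr7:30561863-30563627), was the most abundant at 90.3 and 55.6, 89.8, and 55.8 and 61.8 RPKM. WT Em2 and Notch1 cKO were the high libraries and the other 3 lay lower, so the split cut across the WT group. Its log2 fold change was −0.27 in Notch2 cKO against WT and −0.60 in Notch2 cKO against Notch1 cKO (SE 0.32, adjusted p = 0.624). It is also the shortest member, with a length of 651 bases.

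Aph1a and Aph1b are alternative scaffold subunits of which a complex holds 1. Aph1a read 9.19 and 6.63, 5.09, and 7.90 and 10.2 RPKM (chr3:95893969-95898288). The Notch1 cKO value was the lowest of the 5 (log2 fold change of −0.53 against WT, SE 0.39, adjusted p = 1). Aph1b read 2.72 and 3.27, 3.38, and 2.72 and 3.76 RPKM (chr9:66775202-66795490). Aph1a was above Aph1b in 5 of 5 libraries, by 1.51- to 3.38-fold. Psen2, a catalytic subunit, had log2 fold changes of −0.18 in Notch2 cKO against WT and 0.03 in Notch1 cKO against WT, and it was above Aph1a in 4 of 5 libraries. Of Aph1a's exon bases 12.9% also belong to Car14 on the other strand, of Psenen's 9.3% to U2af1l4 and of Ncstn's 4.9% to Copa. The kit does not mark strand, so reads there cannot be told apart, and Aph1b has a near copy, Aph1c, which could share its reads.

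For each of the 5 glycosylation enzymes the Notch2 cKO and WT libraries overlapped. Of all genes tested, 28.3% had both Notch2 cKO libraries above both WT libraries and 9.44% both below. Lfng, Mfng and Rfng are the Fringe enzymes, which extend O-fucose on the receptor and shift its choice of ligand. Lfng (chr5:140607320-140615545) stood at 1.79 and 3.39 RPKM in WT, 1.92 in Notch1 cKO, and 1.14 and 4.28 in Notch2 cKO. The 2 Notch2 cKO libraries were the lowest and the highest of all, a 3.76-fold difference within the group, and the log2 fold change against WT was −0.06 (SE 0.33, adjusted p = 0.975). Mfng read 3.53 and 4.34, 4.44, and 5.23 and 3.97 RPKM. Rfng, the most abundant Fringe, read 8.53 and 14.2, 11.5, and 12.7 and 12.3 RPKM. Rfng exceeded Mfng in 5 of 5 libraries, by 2.42- to 3.27-fold, and Mfng exceeded Lfng in 4 of 5, the exception being Notch2 cKO Em4. Pofut1 attaches the O-fucose, and read 4.04 and 7.41, 7.62, and 6.68 and 5.15 RPKM. Poglut1 attaches O-glucose, and read 9.63 and 11.7, 11.5, and 11.6 and 18.7 RPKM. Notch2 cKO Em4 was the high library for Poglut1 while the other 4 lay between 9.63 and 11.7 (log2 fold change 0.44, SE 0.30, adjusted p = 0.754).

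Numb had the largest estimated difference of all members in Notch2 cKO against WT. Numb is an endocytic adaptor that is passed to 1 daughter cell at some divisions and dampens Notch there (chr12:83794034-83921934). It stood at 3.09 and 2.92 RPKM in WT, 2.25 in Notch1 cKO, and 4.42 and 7.57 in Notch2 cKO. The 2 WT libraries were close, Notch1 cKO was below both and the Notch2 cKO libraries were above both, differing from each other by 1.71-fold. Of all genes tested, 26.1% had Notch1 cKO below both WT libraries and 28.3% had Notch2 cKO above both. For Notch2 cKO against WT the log2 fold change was 0.77 (SE 0.32, 95% interval 0.12 to 1.41, unadjusted p = 0.0197, limma adjusted p = 0.531). Over the alternatives it ran from 0.44 (without Notch2 cKO Em4) to 1.10 (without Notch2 cKO Em3). In Notch2 cKO against Notch1 cKO it was 1.07 (SE 0.40, unadjusted p = 0.00836, limma adjusted p = 0.345). In Notch1 cKO against WT it was −0.30 (SE 0.40, adjusted p = 1). Numbl, its close relative (chr7:27258433-27282144), read 4.87 and 8.53, 6.86, and 10.4 and 10.2 RPKM. Its Notch2 cKO libraries were close and lay above both WT libraries, which were 1.75-fold apart (log2 fold change 0.60, SE 0.32, adjusted p = 0.694), and the estimate was 0.25 without WT Em2 and 0.95 without WT Em4. Numbl was above Numb in 5 of 5 libraries.

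Among the ubiquitin ligases tested, only Itch had both Notch2 cKO libraries above both WT libraries, by a small step. Of all genes tested, 28.3% did so. Itch, a ligase that acts on Notch and other substrates, read 6.86 and 8.74, 8.16, and 8.97 and 10.0 RPKM, with Notch2 cKO above both WT libraries (log2 fold change 0.26, SE 0.31, adjusted p = 0.866). Mib1 and Mib2 act in the neighbouring cell, on the ligands. Mib1 read 1.33 and 3.25, 2.07, and 2.20 and 3.19 RPKM, and Mib2 read 2.07 and 4.15, 3.59, and 2.56 and 4.23. In both genes WT Em2 was the lowest library, and the WT libraries differed by 2.45-fold for Mib1 and by 2.00-fold for Mib2. Fbxw7, which recognises the freed intracellular part for destruction (chr3:84815268-84979198), read 4.82 and 5.99, 6.07, and 6.52 and 4.07 RPKM, with Notch2 cKO at both ends of the range (log2 fold change −0.05, SE 0.32).

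The Deltex genes encode ubiquitin ligases that bind the intracellular part of Notch. Dtx4 read 11.4 and 19.5, 19.0, and 15.9 and 15.5 RPKM. Dtx3 read 3.64 and 6.75, 7.37, and 5.21 and 9.08 RPKM. Dtx2 read 1.18 and 2.97, 2.20, and 2.22 and 2.89 RPKM. In these 3 genes WT Em2 was the lowest library. Dtx1, often used as a Notch target in lymphocytes, was at 0.331 and 0.342 RPKM in WT, 0.306 in Notch1 cKO and 0.532 and 0.420 in Notch2 cKO, from 29 reads in WT Em4 and Notch1 cKO Em8 to 45 in Notch2 cKO Em4. The group order at Dtx1 (Notch1 cKO, WT, Notch2 cKO) had no overlap, but without the filter on low values Notch2 cKO against WT gave a log2 fold change of 0.14 (SE 0.11, adjusted p = 0.73). The order Dtx4, Dtx3, Dtx2, Dtx1 held in 5 of 5 libraries.

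Rbpj and its co-activators had group means close together, and most of them were lowest in the same 2 libraries, 1 of each group compared. Rbpj (chr5:53466152-53657362) stood at 8.77 and 13.5 RPKM in WT, 12.2 in Notch1 cKO, and 13.2 and 10.3 in Notch2 cKO. WT Em2 and Notch2 cKO Em4 were the low libraries, and the log2 fold changes were 0.09 in Notch2 cKO against WT (95% interval −0.51 to 0.69) and 0.15 in Notch1 cKO against WT (−0.58 to 0.89). The Mastermind genes encode the scaffold that clamps the intracellular part to Rbpj. Maml1 (chr11:50255634-50292311) read 2.99 and 5.12, 3.71, and 4.51 and 2.55 RPKM. Maml3 read 0.723 and 0.981, 0.847, and 0.955 and 0.517 RPKM, and Maml2 read 0.140 and 0.487, 0.406, and 0.822 and 0.257. All 3 had WT Em2 and Notch2 cKO Em4 as their 2 lowest libraries, and the order Maml1, Maml3, Maml2 held in 5 of 5 libraries.

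Of the histone acetyltransferases that join the complex, Crebbp, Ep300 and Kat2b were also lowest in these 2 libraries. Crebbp (chr16:4081328-4213997) read 12.6 and 20.7, 17.8, and 20.7 and 9.91 RPKM. The difference in log2(RPKM + 1) was −0.99 between the Notch2 cKO libraries (Em4 minus Em3) and −0.67 between the WT libraries (Em2 minus Em4). Ep300 read 4.84 and 6.12, 5.35, and 6.41 and 4.24 RPKM, and Crebbp exceeded it by 2.34- to 3.37-fold in 5 of 5 libraries. Kat2b read 3.58 and 5.26, 5.15, and 3.59 and 3.07 RPKM, the lowest estimate of the members in Notch2 cKO against WT (log2 fold change −0.31, SE 0.32, adjusted p = 0.85). Kat2a, in contrast, read 10.1 and 16.2, 14.1, and 13.9 and 16.1 RPKM and was not low in Notch2 cKO Em4. Snw1, a splicing and transcription cofactor that binds the Rbpj complex (chr12:87449075-87472274), read 81.0 and 90.1, 90.0, and 102 and 97.2 RPKM. Both Notch2 cKO libraries lay above the other 3 (log2 fold change 0.22, SE 0.26, adjusted p = 0.866), but 44.2% of Snw1's exon bases overlap Slirp on the other strand, and reads there cannot be told apart without strand.

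The co-repressors that Rbpj holds in the absence of Notch included the most abundant member, Hdac2, and the member with the narrowest range among those tested, Hdac1. Hdac2 (chr10:36974544-37001889) stood at 169 and 156 RPKM in WT, 119 in Notch1 cKO, and 172 and 203 in Notch2 cKO. Notch1 cKO was below and Notch2 cKO above both WT libraries, as at Numb and the untested Dtx1. Of all genes tested, 26.1% had Notch1 cKO below both WT libraries and 28.3% had Notch2 cKO above both. The share with this whole order was not computed. Its log2 fold changes were −0.44 in Notch1 cKO against WT (SE 0.33, adjusted p = 1), 0.20 in Notch2 cKO against WT (SE 0.27, adjusted p = 0.881) and 0.64 in Notch2 cKO against Notch1 cKO (SE 0.33, adjusted p = 0.586). Hdac1 (chr4:129516104-129542713) read 49.4 and 51.3, 44.8, and 42.6 and 52.2 RPKM, a range of 1.22-fold, and was below Hdac2 in 5 of 5 libraries. Ctbp1 and Ctbp2 are co-repressors that bind short motifs in other repressors. Ctbp1 read 36.3 and 57.9, 46.1, and 38.9 and 69.6 RPKM, and Ctbp2 read 10.5 and 17.1, 15.1, and 15.2 and 11.0. In Notch2 cKO Em4 Ctbp1 was at its highest while Ctbp2 was at its second lowest, so their ratio ranged from 2.56 to 6.32. Ncor1, a scaffold for deacetylases (chr11:62316426-62458541), read 21.5 and 24.4, 20.9, and 29.4 and 21.0 RPKM. Spen, the repressor that binds Rbpj directly (chr4:141467890-141538597), read 2.56 and 5.03, 4.75, and 3.78 and 3.47 RPKM, with a log2 fold change of 0.31 in Notch1 cKO against WT (SE 0.40, adjusted p = 1). The groups overlapped at both Ncor1 and Spen in Notch2 cKO against WT.

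Group separation without regard to size gave the following counts. In Notch2 cKO, 7 of 35 members tested (Adam17, Ncstn, Numb, Numbl, Itch, Snw1 and Hdac2) had both libraries above both WT libraries, which is 20.0% where 28.3% of all genes did. No member tested had both below, where 9.44% of all genes did. The Notch1 cKO library was above both WT libraries for 6 members (Furin, Aph1b, Mfng, Pofut1, Dtx3 and Fbxw7; 17.1% against 24.3% of all genes) and below both for 5 (Aph1a, Numb, Ncor1, Hdac1 and Hdac2; 14.3% against 26.1%). Both Notch2 cKO libraries were above Notch1 cKO for 13 (37.1% against 47.7%) and below it for 6 (Psen2, Psenen, Pofut1, Dtx4, Kat2b and Spen; 17.1% against 25.2%). Each of these shares lay below that of all genes.

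The spread within groups was the clearest feature of these genes. WT Em2 was the lowest of the 5 libraries for 21 of 35 members (60.0%, against 41.5% of all genes), Notch2 cKO Em4 the highest for 15 (42.9% against 33.3%) and WT Em4 the highest for 11 (31.4% against 16.7%). WT Em2 lay below WT Em4 in 31 of 35 members (88.6% against 69.2% of all genes), with a median difference of −0.45 in log2(RPKM + 1) beside −0.20. The exceptions were Psenen, Aph1a, Hdac2 and Numb. Over all 11541 genes tested that had a length, this difference was lower in longer genes (Spearman's rho of −0.48 across genes, which are not independent), and over the 35 members rho was −0.30. The members tested were long genes, with a median length of 3793 bases beside 2616 for all genes. Length moved with these differences, and its part in them was not tested.

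**Figure D3:**
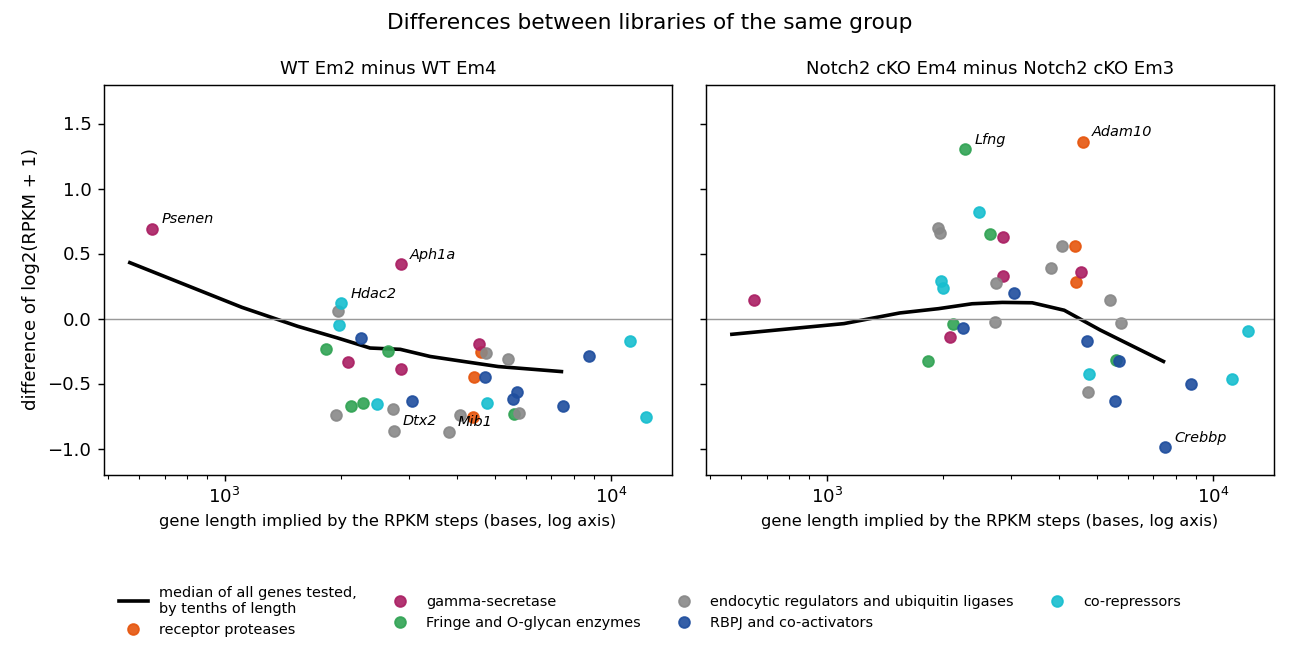
Difference of log2(RPKM + 1) between the 2 libraries of a group against gene length (log axis, bases), for the 35 members tested, coloured by role; the line joins the medians of all genes in 10 bins of length. In WT nearly all members lie below 0; in Notch2 cKO the proteases lie above 0 and the long co-activators below.

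Between the Notch2 cKO libraries, Em4 was above Em3 for 3 of 3 proteases (median log2 difference 0.55), 4 of 5 gamma-secretase subunits (0.33), 2 of 5 glycosylation enzymes (−0.04) and 6 of 9 endocytic regulators and ligases (0.27). It was above Em3 for only Kat2a among 7 tested genes of Rbpj and its co-activators (−0.33), and for 3 of 6 co-repressors (0.07). Grouped more widely, a choice made after seeing the values, 9 of 13 protease, gamma-secretase and glycosylation genes were higher in Em4, against 4 of 13 nuclear genes and 49.0% of all genes. No test was made of this split. Across the 35 members the difference had a rho of −0.50 with gene length, beside −0.08 over all genes, and the median length was 2851 bases for the first group and 4777 bases for the nuclear genes. The column names also hold digits, whose meaning no source used here gives, and Notch2 cKO Em4 and WT Em4 share theirs. Between these 2 libraries, 18 members were higher and 17 lower in Notch2 cKO (median 0.02, beside 0.03 for all genes), and Rbpj and its co-activators had a median of −0.44. Notch1 cKO Em8 and Notch2 cKO Em3 share theirs too, and there 20 members were higher and 15 lower in Notch2 cKO (median 0.01 beside 0.13). The digits of WT Em2 match no other column, and with them as a level of their own a fit with the digits as a term leaves no spread to test against.

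Ratios between related members within a library take out what moves all genes alike. They do not take out differences that go with gene length where the 2 genes differ in length. Kat2a (3048 bases) and Kat2b (4708) do so, while Hdac1 (1971) and Hdac2 (2004) are close. Of 16 ratios computed, 3 had Notch2 cKO libraries wholly to 1 side of WT. Kat2a over Kat2b, on the log2(RPKM + 1) scale, was 1.27 and 1.46 in WT, 1.30 in Notch1 cKO, and 1.70 and 2.07 in Notch2 cKO. Hdac1 over Hdac2 was −1.75 and −1.58, −1.40, and −1.99 and −1.94. Maml1 over Maml2 was 1.81 and 2.04, 1.74, and 1.60 and 1.50, where Maml2 had as few as 23 reads. With 2 libraries against 2, the exact permutation test (two-sided) cannot give a p below 0.333, which these 3 ratios reached, and the adjusted p over the 16 ratios was 1. The other 13 overlapped. The widest within-group gaps were at Lfng over Rfng, with −2.68 and −1.33 in Notch2 cKO, and at Ctbp1 over Ctbp2, with 1.30 and 2.55.

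**Figure D4:**
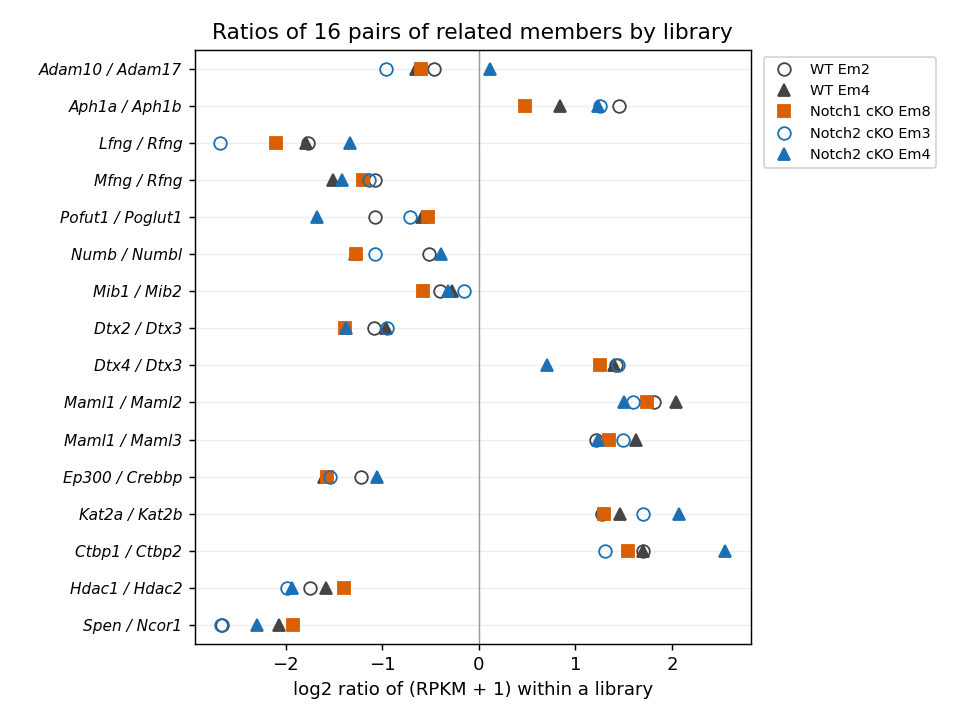
Log2 ratio of (RPKM + 1) for 16 pairs of related members, 1 symbol per library. For Kat2a over Kat2b the Notch2 cKO symbols (1.70 and 2.07) lie right of the WT symbols (1.27 and 1.46), and for most other pairs the groups overlap.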

How the data were processed

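RNA of tdTomato-positive, lineage-negative cells (stained against CD31, CD45 and Ter119) was turned into sequencing libraries by the SMART-Seq v4 kit, per the labels' protocols; this kit does not mark strand. The authors deposited RPKM values for 27179 rows in 5 libraries. Of these rows, 1306 without a gene name were left out (2.19% to 3.07% of the summed RPKM). The tool bcl2fastq 2.20.0 and the build mm10 are named in the submitters' processing notes. Aligner, counter and annotation were not given in the sources used here. Columns were matched to groups by name only. Positions are GENCODE M21 (GRCm38), matched by symbol for all 38 genes. GENCODE holds 2 pseudogenes named for Rbpj and 1 named for Kat2b, and whether they shared reads with these members was not tested.

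Groups were compared with limma 3.58.1 in R 4.3.3, by lmFit and eBayes with trend, on log2(RPKM + 1), which understates changes of low genes, with 1 mean per group over all 5 libraries, a mean of at least 1 RPKM (11543 genes) and Benjamini-Hochberg adjustment at 0.05, two-sided. The spread rested on 2 residual and 103.8 prior degrees of freedom; Notch1 cKO, with 1 library, was taken to vary as the other groups do. Whole reads and gene lengths were recovered from the RPKM steps for 24356 of 24358 rows above 0 (tolerance 0.02 reads). The fit was checked on simulated reads.

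The members, gene lists and tests were chosen with earlier results of these data known. All 38 members are named. Of other genes, the rule named Notch1, Notch2, Hes1, the most abundant marker of each list and listed genes past the threshold. The alternatives were other pseudocounts, filters, scalings and variance models, removal of the length trend, voom on recovered reads, and leaving out each library.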

Additional observations from a re-analysis of the deposited data

How the results depend on the processing

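No member was called in any comparison under any of the 15 alternatives. The lowest adjusted p over them was 0.193 in Notch2 cKO against WT (Numbl, without WT Em4), 0.9997 in Notch1 cKO against WT and 0.247 in Notch2 cKO against Notch1 cKO. Leaving out each library in turn, the members' median log2 fold change ran from −0.119 (without WT Em2) to 0.375 (without WT Em4) in Notch2 cKO against WT, from −0.164 (without WT Em2) to 0.28 (without WT Em4) in Notch1 cKO against WT, and from 0.0137 to 0.177 in Notch2 cKO against Notch1 cKO. In Notch2 cKO against WT, median-of-ratios scaling took the median of all genes from 0.14 to 0.00 and that of the members to 0.02, and quantile normalization took the members to −0.02. Under these scalings the calls over all genes, 41 higher and 21 lower as deposited, became 14 and 12, and 3 and 1. Removal of the length trend took the members' median to 0.08, beside 0.12 for all genes, with 6 genes called higher and 0 lower. In Notch2 cKO against Notch1 cKO the members' median turned below 0 under the same alternatives. It was −0.05 with median-of-ratios scaling, −0.08 with quantile normalization and −0.02 with the length trend removed. In Notch1 cKO against WT it stayed above 0 under them (0.04, 0.06 and 0.11). In 2 alternatives of each comparison 0 genes of the whole table were called, so these say nothing on the members: no filter in all 3, voom in Notch2 cKO against WT, and the removed length trend in both comparisons with Notch1 cKO. Members not called in either of the 2 settings compared were counted as unchanged. Their sign turned in 56 of 514 values in Notch2 cKO against WT, 31 of 479 in Notch1 cKO against WT and 30 of 479 in Notch2 cKO against Notch1 cKO. The Maml1 over Maml2 difference in Notch2 cKO against WT was −0.38 and became −0.815 with a pseudocount of 0.1, which gives low values more weight. The Dtx1, Maml2 and Maml3 values rest on few reads, and the Notch1 cKO group has 1 library. No paired analysis was possible because the columns carry no replicate numbers.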

Other observations

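A wider list of 47 genes of Notch machinery outside the 38 (other glycosyltransferases, tetraspanins of the ADAM proteases, ligases, Groucho-type co-repressors and chromatin factors) gave 42 genes tested and 0 called in each of the 3 comparisons by limma, with 2, 1 and 3 genes at an unadjusted p under 0.05 (4.76%, 2.38% and 7.14%, against 7.63%, 1.85% and 8.66% of all genes). The lowest adjusted p values were 0.375 for Carm1, an arginine methyltransferase, in Notch2 cKO against WT, 1 in Notch1 cKO against WT and 0.347 for Tspan33, a tetraspanin, in Notch2 cKO against Notch1 cKO. The median log2 fold change of the 42 was 0.23 in Notch2 cKO against WT, beside 0.14 for all genes, with 38 above 0 (90.5%, against 68.1% of all genes). Without WT Em2 the median was −0.01 beside 0.03, with 20 above 0, and without WT Em4 it was 0.43 beside 0.26, with 41 above 0. The most abundant was Tle5, a short Groucho-family protein, with 185 and 258 RPKM in WT, 251 in Notch1 cKO, and 205 and 240 in Notch2 cKO. These lists were chosen with earlier results of these data known. None of the 3 Notch ligands tested and none of the 5 Hes and Hey genes tested was called in any of the 3 comparisons.

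Listed markers of other cells past the threshold were few, and most calls were lost in at least 1 fit with a library left out. Such a fit is also a weaker test. Hba-a2 was low in both Notch2 cKO libraries (193 and 165 RPKM, against 431 and 478 in WT) and lost its call without either of them. The mast cell proteases Tpsb2 and Cpa3 were higher and the globins Hba-a1, Hba-a2 and Hbb-b1 lower in Notch2 cKO against WT, and each of these 5 calls was lost without Notch2 cKO Em4. The 3 globin calls were also lost without Notch2 cKO Em3, the 2 mast cell calls without WT Em2, those of Hba-a1, Hbb-b1 and Cpa3 also without WT Em4, and that of Cpa3 without Notch1 cKO Em8. In Notch1 cKO against WT the fibroblast gene Mfap5 was higher, and lost the call without Notch2 cKO Em4, WT Em2 or WT Em4. In Notch2 cKO against Notch1 cKO, Cma1 and Cpa3 were higher and Hba-a1 and Hbb-bs lower, whichever library of 4 was left out. The calls of Tpsb2 (higher), Hba-a2 and Hbb-b1 (lower) were lost without Notch2 cKO Em4, and that of Dpt (lower) without any 1 of the 4. Matn1 was higher, at 24.2 RPKM in Notch2 cKO Em4 and at most 2.38 in the other 4. It passed the filter only through that library, and without Notch2 cKO Em4 it was not tested. The Matn1 call was lost without WT Em2 or WT Em4. The most abundant markers of the other lists were Col3a1, Scx, Egfl7, Cd68 and Notch3, none of which passed in a comparison.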
